A study of Mus musculus with 6 samples.

Results

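Integrins and laminins are receptor and ligand: an integrin is a pair of an alpha and a beta chain that spans the cell membrane and ties the matrix outside to the actin skeleton inside, and a laminin is a trimer of an alpha, a beta and a gamma chain that forms the core sheet of basement membranes. The alpha chain largely sets which ligand an integrin binds, and laminins are named after the chains they hold. In carcinomas both families are known for their part in attachment, migration and survival. Members were every gene whose symbol names an integrin alpha chain, an integrin beta chain or a laminin chain, and 35 of the 18182 genes in the files are described, namely 17 integrin alpha, 8 integrin beta and 10 laminin genes. The sequenced cells were LLC-RFP, a line derived from a Lewis lung carcinoma of a mouse and carrying red fluorescent protein, which were injected under the skin of wild-type C57BL/6 mice either without other cells (LLC alone) or mixed with C57BL/6 bone marrow-derived mesenchymal stem cells (LLC with BMSCs), and sorted from the tumours by their fluorescence. There were 3 libraries in each group, and the labels do not say whether each came from a separate mouse, nor give age or sex, so p-values measure the spread between these libraries only. The line and the fluorescence are shared by both groups, and the comparison asks what the line expresses after growing with BMSCs. Among markers of the line's labelled origin, the keratin Krt8 had 5439 to 8658 counts per library, while the epithelial adhesion genes Epcam and Cdh1 had 0 to 5. Krt18 had 2 to 8 counts in LLC alone and 37 to 41 in LLC with BMSCs, and Krt19 had 3 or fewer in any library.

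Between 33476347 and 46189113 fragments per library were counted on genes. Library LLC alone replicate 3 stood apart, where the 2671 tested genes of longest transcripts, at 4850 bases or more, lay by the median 0.35 below their 6-library mean on the log2 scale (a deviation of -0.35), against -0.02 in replicate 1. Of the 25 members tested, 14 are that long. Fits with the length trend of each library removed and without LLC alone replicate 3 are therefore given where they change a call. At the median gene, the squared difference between LLC alone replicates 1 and 2 was 1.96 times that of counting noise. For LLC with BMSCs replicates 2 and 3 it was 1.69 times, and for the other pairs within a group 5.04 to 14.2 times. These pairs were the most alike libraries, and a fit that sums each pair is given below. Libraries of LLC with BMSCs also held more reads of leukocyte markers, 10.6 to 11.3 CPM (counts scaled to the library total) summed over 5 genes against 1.11 to 1.34, and of BMSC or fibroblast markers, 670 to 702 CPM over 10 genes against 271 to 326. Most of this last sum was Col3a1, at a mean of 228 CPM in LLC alone and 546 in LLC with BMSCs. In bulk libraries, more cells of another type and more RNA per cell cannot be told apart.

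Of the 35 members, 16 were expressed, which here means a mean of at least 1 FPKM (fragments scaled to the length of the transcript and the total of the library) in at least one group: 7 integrin alpha, 4 integrin beta and 5 laminin genes. A low-count filter left 25 members in the test, a quasi-likelihood fit of edgeR that set LLC with BMSCs against LLC alone, and of these 15 were higher and 2 lower at an adjusted p under 0.05. Over all 13353 genes tested, 31.5% were higher and 31.3% lower, so that many genes were called in both directions. Itga2, Itgam and Lama1 passed the filter through LLC with BMSCs only, and their calls follow in part from that. So does the call of Lamb3, which met the filter level in 3 libraries grown with BMSCs but in only 1 grown without. A filter of at least 10 counts in every library left 20 members, 11 higher and 2 lower. With the length trend removed the 25 members split into 15 higher and 4 lower. Without LLC alone replicate 3 the split was 15 and 5. It was the same with the length trend removed and the replicate number as a block. The median log2 fold change of the 25 was 0.66, or 0.52 with the length trend removed, beside 0.01 over all genes. Lama1, at 0 in LLC alone, has a fitted value that is no estimate of size. Its bound of 19.7-fold lies above this median as the fitted value does, so the median is 0.66 with either and this is no test of it. The medians of the partner lists below also stay the same with bounds. The groups did not overlap in FPKM for 12 of the 16 expressed members, 10 higher, beside 37.4% of all expressed genes, and 2 lower, beside 35.0%. Itgam and Itgb2, among the 10 higher, reached 1 FPKM in LLC with BMSCs only and count as expressed through that group. All expressed genes were taken by the same rule. At a log2 fold change of at least 1 there were 10 higher members, beside 8.65% of all genes. Itga2, Itgam, Lama1 and Lamb3, which depend on LLC with BMSCs to pass the filter, are among the 10. So are Lama3 and Lama5, which were under 1 with the length trend removed, at 0.81 and 0.95. The expressed alpha chains rose but for Itga1, the expressed beta chains split evenly, and the laminin chains split by class.

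**Figure D1:**
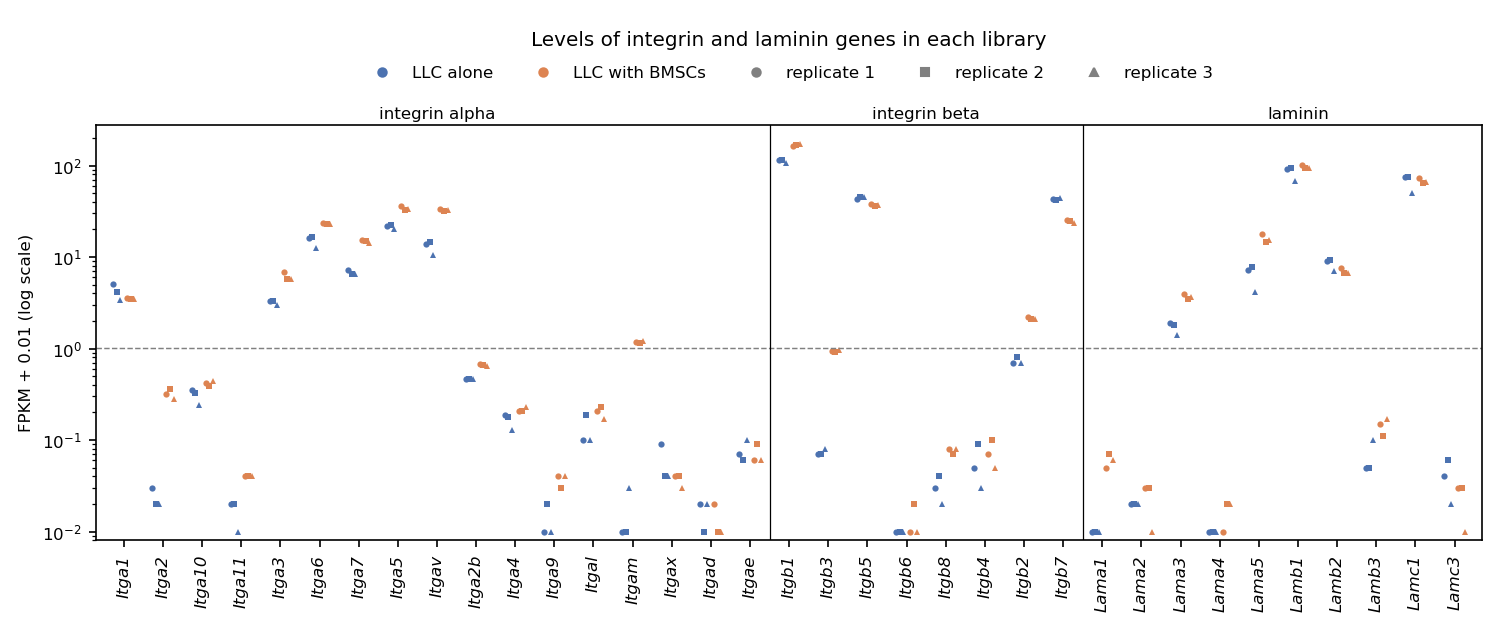
Level of each of the 35 genes in each of the 6 libraries, as FPKM plus 0.01 on a log axis, with the groups in colour, replicates by shape and the dashed line at 1 FPKM. Itgb1, Lamb1 and Lamc1 stand highest, and Itgb7 is lower in all libraries of LLC with BMSCs than in any of LLC alone.

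The 250 bases before the transcription start are shown for 4 members on which the results turn: Itgav and Lama5, which were expressed in both groups and rose, Itgam, which rose from next to nothing, and Itgb7, the abundant member that fell furthest. They were read from RefSeq promoters of the build GRCm38.p6, in which 22 of the members had an entry. They lie at chr2:83724147-83724396 on the plus strand, chr2:180225860-180226109 on the minus strand, chr7:128062390-128062639 on the plus strand and chr15:102231936-102232185 on the minus strand, in that order. Capitals mark GGGCGG on either strand, the letters of the Sp1 motif.
Itgav: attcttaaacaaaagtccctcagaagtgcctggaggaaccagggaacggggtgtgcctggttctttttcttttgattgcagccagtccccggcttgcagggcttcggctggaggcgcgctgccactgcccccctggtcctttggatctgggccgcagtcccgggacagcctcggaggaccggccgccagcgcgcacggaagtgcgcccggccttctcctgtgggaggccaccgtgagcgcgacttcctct
Lama5: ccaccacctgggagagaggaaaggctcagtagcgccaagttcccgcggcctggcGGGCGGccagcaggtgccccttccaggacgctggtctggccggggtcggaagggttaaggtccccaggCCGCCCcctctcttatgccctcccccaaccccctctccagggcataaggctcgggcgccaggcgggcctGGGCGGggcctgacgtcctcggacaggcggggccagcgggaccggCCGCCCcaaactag
Itgam: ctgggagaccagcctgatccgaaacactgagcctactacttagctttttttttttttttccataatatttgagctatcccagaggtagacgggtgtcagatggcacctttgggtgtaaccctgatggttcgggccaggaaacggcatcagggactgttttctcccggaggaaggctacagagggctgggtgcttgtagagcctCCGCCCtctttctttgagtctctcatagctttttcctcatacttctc
Itgb7: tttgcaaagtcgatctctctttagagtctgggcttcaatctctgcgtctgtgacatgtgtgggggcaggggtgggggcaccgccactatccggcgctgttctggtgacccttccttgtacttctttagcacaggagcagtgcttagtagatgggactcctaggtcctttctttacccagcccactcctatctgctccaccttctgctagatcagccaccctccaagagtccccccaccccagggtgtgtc
The Lama5 window held the letters 4 times and the Itgam window once, and the Itgav and Itgb7 windows did not hold them. GGGCGG occurred in the windows of 8 of the 22 members, and in 32.7% of all 32851 windows of this length. The STAT motif TTCNNNGAA was in the windows of Itga10 and Lamb2, against 7.02% of all windows, and the AP-1 motif TGANTCA in that of Itgax, against 6.75%. TATAAA, the TATA box, was in none of the members' windows and in 12.4% of all. Each motif was searched on both strands, and a match or its absence describes these letters alone.

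Itgb1 is the beta chain with the most partners, joining alpha chains for collagen, laminin and fibronectin, and it was the most abundant member in every library. Its FPKM was 114, 115 and 107 in LLC alone and 164, 168 and 171 in LLC with BMSCs, which placed it at rank 548 among all genes. The groups did not overlap, and the log2 fold change was 0.56 ± 0.05 (SE, n = 3 libraries per group; adjusted p = 8.42e-05, edgeR). The beta chains summed to 201 ± 3.45 FPKM (SD, n = 3) in LLC alone and 233 ± 1.72 in LLC with BMSCs, and the share of Itgb1 in that sum was 55.8% ± 1.37 and 72.2% ± 0.900.

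Fibronectin and vitronectin receptors share an RGD-binding alpha chain, and the expressed members of this kind both rose. Itgav, the alpha chain of the receptors that bind vitronectin and latent TGF-beta, had 13.8, 14.7 and 10.5 FPKM in LLC alone and 33.1, 31.8 and 32.3 in LLC with BMSCs. Each library of LLC with BMSCs was above every library of LLC alone, and the log2 fold change was 1.29 ± 0.12 (adjusted p = 6.24e-05, edgeR), or 1.03 with the length trend removed. Itga5, which joins Itgb1 in the classical fibronectin receptor, had 21.7, 22.3 and 20.4 FPKM in LLC alone and 36.4, 33.1 and 33.4 in LLC with BMSCs. Its groups did not overlap either, with a log2 fold change of 0.66 ± 0.07 (adjusted p = 0.000103, edgeR). Itga2b, the alpha chain of the platelet fibrinogen receptor, was under 1 FPKM throughout and rose by 0.49 ± 0.11 on the log2 scale (adjusted p = 0.00669, edgeR), a call lost when the most alike libraries were summed (adjusted p = 0.0508). In the order of alpha chain levels, Itga5 led in both groups and Itgav stood below Itga6 in all libraries of LLC alone and above it in all of LLC with BMSCs, where the ranges of Itga5 and Itgav met. The share of Itgav in the summed alpha chains was 20.0% ± 1.56 in LLC alone and 27.6% ± 0.334 in LLC with BMSCs.

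The beta chains that join Itgav moved in opposite directions. Itgb5, a vitronectin receptor chain and the main Itgav partner by level besides Itgb1, had 43.1, 45.2 and 44.8 FPKM in LLC alone and 38.3, 35.8 and 36.9 in LLC with BMSCs. All libraries of LLC with BMSCs were lower, by a small amount, with a log2 fold change of -0.28 ± 0.06 (adjusted p = 0.00333, edgeR), and the call was lost when the most alike libraries were summed (adjusted p = 0.0653). Itgb3, the beta chain of the vitronectin and platelet fibrinogen receptors, had 15, 11 and 19 counts in LLC alone and 240, 230 and 242 in LLC with BMSCs. It stayed under 1 FPKM in both groups, at 0.0633 ± 0.00577 and 0.937 ± 0.0252 (SD, n = 3), with a log2 fold change of 3.88 ± 0.14 (adjusted p = 6.46e-07, edgeR). The mean FPKM of Itgb5 was 700 times that of Itgb3 in LLC alone and 39.5 times in LLC with BMSCs. Itgb8 and Itgb6, activators of latent TGF-beta when joined to Itgav, were not tested, with 26 counts of Itgb8 in the libraries of LLC with BMSCs against 7 and 2 of Itgb6 against 0. Platelet markers, which go with Itga2b, Itgb3 and Itga2 in blood, summed to 2.86 to 3.33 CPM in LLC alone and 4.50 to 4.64 in LLC with BMSCs over 5 genes, with Pf4 at 1 to 5 and 22 to 33 counts and Gp9 and Gp6 at 6 or fewer in any library. Their part in these results was not tested.

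All laminin-binding alpha chains rose. Itga7, best known from muscle, had 7.19, 6.55 and 6.53 FPKM in LLC alone and 15.2, 15.0 and 14.4 in LLC with BMSCs. The groups lay far apart, with a log2 fold change of 1.12 ± 0.06 (adjusted p = 5.34e-06, edgeR). Itga6, which joins Itgb1 or Itgb4, had 16.0, 16.4 and 12.4 FPKM in LLC alone and 23.3, 22.7 and 23.2 in LLC with BMSCs. LLC alone replicate 3 was its lowest library, and the log2 fold change of 0.61 ± 0.10 (adjusted p = 0.00139, edgeR) was 0.39 with the length trend removed, with the call kept. Its reads were divided between RefSeq transcripts of 5888 and 6018 bases, and the shorter held 58.1% ± 2.34 in LLC alone and 57.5% ± 1.70 in LLC with BMSCs (SD, n = 3), so that the rise was shared by both. Itga3, an epithelial laminin receptor chain, had a mean of 3.21 ± 0.196 FPKM in LLC alone and 6.09 ± 0.587 in LLC with BMSCs, a log2 fold change of 0.90 ± 0.09 (adjusted p = 7.87e-05, edgeR). Itgb4, the hemidesmosome chain that binds laminin with Itga6, had 5 to 17 counts in LLC alone and 12 to 23 in LLC with BMSCs, with overlapping groups and an adjusted p of 0.408.

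**Figure D2:**
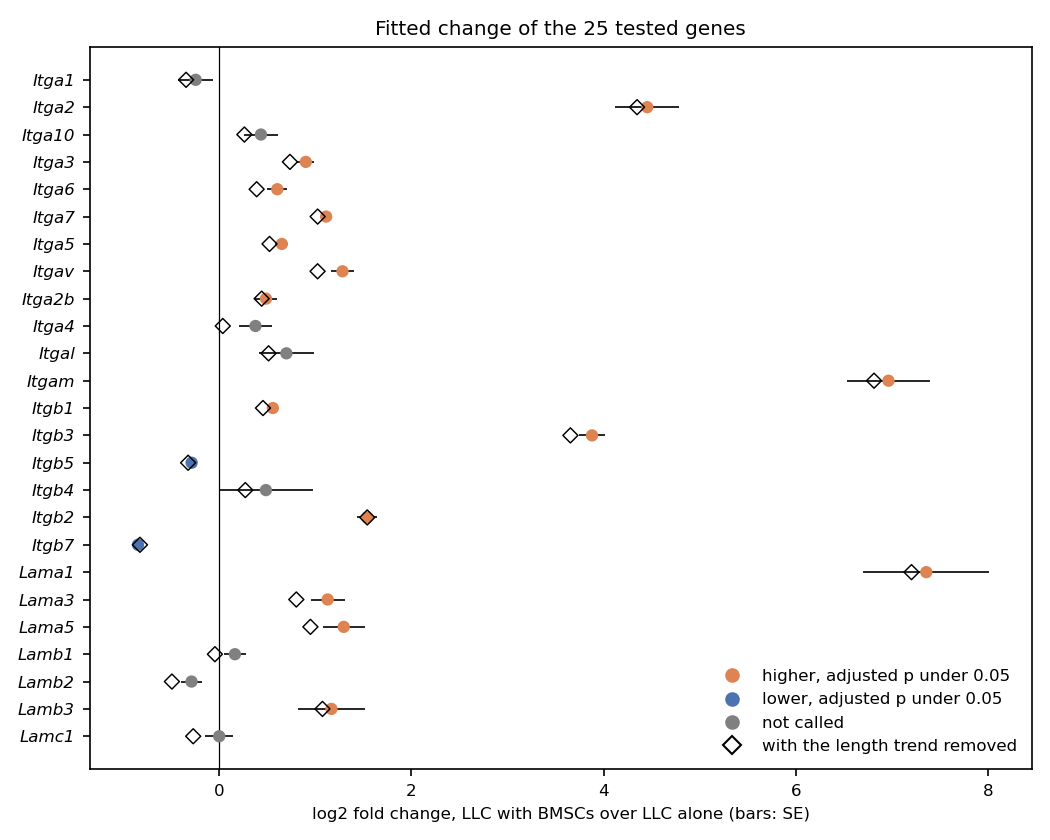
Fitted log2 fold change of the 25 tested genes, LLC with BMSCs over LLC alone, with the standard error as a bar; open diamonds give the same with the length trend of each library removed. Lama1 was at 0 in LLC alone and its point is no estimate of size; Lamb1 and Lamc1 change sign between the 2 fits.

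Of the collagen-binding alpha chains only Itga1 was expressed. It had means of 4.19 ± 0.878 FPKM in LLC alone and 3.48 ± 0.0458 in LLC with BMSCs (SD, n = 3), with overlapping groups and an adjusted p of 0.274. Without LLC alone replicate 3 it was lower, with a log2 fold change of -0.44 (adjusted p = 0.00199, edgeR). Its counts were fractional in all 6 libraries, and an assembled transcript of 2243 bases held 48.7% ± 10.1 of its FPKM in LLC alone. Itga2, which joins Itgb1 in the platelet and epithelial collagen receptor, had 4, 2 and 1 counts in LLC alone and 58, 64 and 50 in LLC with BMSCs. It was called higher (log2 fold change 4.45 ± 0.33, adjusted p = 2.18e-05, edgeR) at a level that reached only 0.310 ± 0.04 FPKM. Itga10, a cartilage collagen receptor chain, had an adjusted p of 0.0596 and 0.407 FPKM at most as a group mean. Itga11, a collagen receptor chain of fibroblasts, was not tested, with 3 counts in LLC alone against 20 in LLC with BMSCs, a ratio of 6.24 with a counting interval of 1.85 to 32.8 (exact, 95%). The collagen-binding chains summed to 4.50 ± 0.941 and 4.23 ± 0.0551 FPKM in the groups, while the laminin-binding chains summed to 24.9 ± 2.59 and 44.0 ± 1.06.

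Itga4 and Itga9, alpha chains for VCAM-1, fibronectin and tenascin, were both under 1 FPKM. Itga4 had 0.157 ± 0.0321 FPKM in LLC alone and 0.207 ± 0.0115 in LLC with BMSCs, with an adjusted p of 0.0925. It shares exon bases with Cerkl on the opposite strand in the GENCODE annotation, and whether the counting used the strand is not given in the sources used here. Itgav, Lama3 and Itgb4 likewise share exon bases with non-coding genes of the opposite strand, and Itga1, Itga10 and Itgam with predicted genes of the same strand, so reads could be split there. Itga9 was not tested, with 1 count in LLC alone against 20, a ratio of 18.7 with a counting interval of 2.99 to 776 (exact, 95%).

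**Figure D3:**
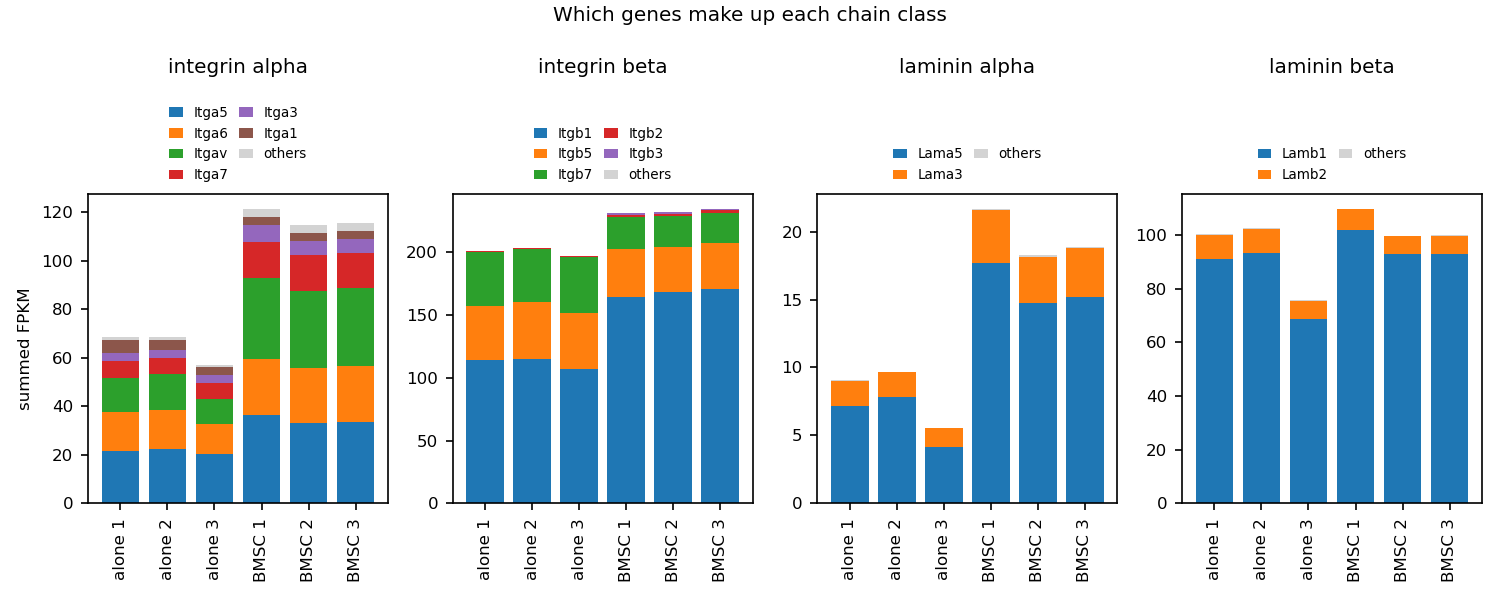
Summed FPKM of each chain class in each library (bars from 0; alone 1 to 3 are LLC alone, BMSC 1 to 3 are LLC with BMSCs), split by gene. The alpha chain sums of both families are higher in every library of LLC with BMSCs, Itgb1 takes a larger part of the beta chains there, and the laminin beta sums overlap between the groups.

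Integrins named for leukocytes went in different directions. Itgam, the alpha chain of the complement receptor Mac-1 of neutrophils and macrophages, had 0, 0 and 5 counts in LLC alone, or 0, 0 and 0.02 FPKM, and 241, 231 and 240 counts in LLC with BMSCs, or 1.17, 1.14 and 1.19 FPKM. All libraries of LLC with BMSCs were far above those of LLC alone, at a fitted log2 fold change of 6.96 ± 0.43 (adjusted p = 9.03e-06, edgeR). LLC alone replicate 3 held all of the counts of its group, so the size of this fold change rests on the 5 counts of that library. Itgb2, the beta chain shared by the leukocyte integrins, had 0.68, 0.80 and 0.68 FPKM in LLC alone and 2.19, 2.09 and 2.09 in LLC with BMSCs. The groups did not overlap, with a log2 fold change of 1.54 ± 0.11 (adjusted p = 1.41e-05, edgeR), so that Itgb2, unlike Itgam, was read in all libraries of LLC alone.

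Blood cell markers moved beside this pair. All 5 leukocyte markers were higher, among them Ptprc (CD45), with 3 to 8 counts in LLC alone and 96 to 112 in LLC with BMSCs, and Cd52, with 0 and 37 to 42. All 5 neutrophil markers tested were higher. Over 7 genes the neutrophil list summed to 0.428 to 0.732 CPM in LLC alone and 17.7 to 20.3 in LLC with BMSCs. Of these S100a8 had 0 to 2 counts in LLC alone and 254 to 302 in LLC with BMSCs, while Ly6g, not tested, had 1 to 4 and 1 to 3. Of the macrophage markers 4 of the 5 tested were higher and Cd68 was lower, Adgre1 (F4/80) had 0 in each library of LLC alone and 60 to 79 in LLC with BMSCs, and C1qa and C1qb had at most 3 counts in any library. Lymphocyte markers summed to at most 0.329 CPM in any library. Itgam and Itgb2 together had 1.92 to 2.25 CPM in LLC alone and 10.97 to 11.5 in LLC with BMSCs, and the part of blood cells in the result was not tested.

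**Figure D4:**
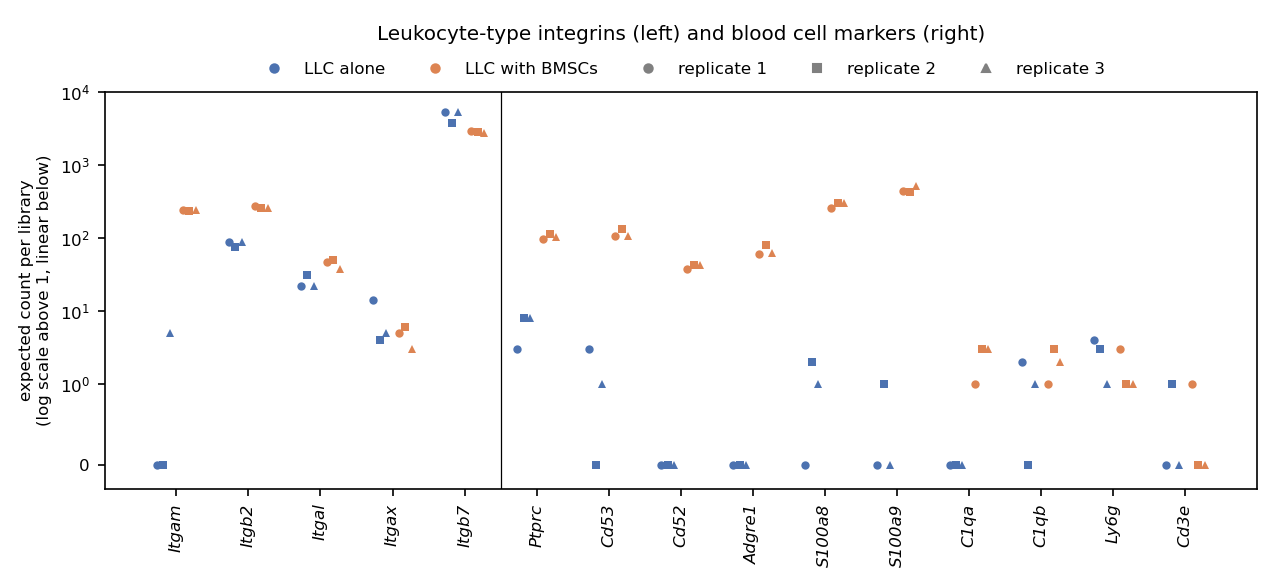
Expected counts per library of the leukocyte-type integrins and of blood cell markers, on an axis that is linear below 1 and logarithmic above it, so that libraries at 0 can be seen. Itgam, Ptprc, Cd53, Cd52, Adgre1, S100a8 and S100a9 are near 0 in LLC alone and at 37 counts or more in LLC with BMSCs, while C1qa, C1qb, Ly6g and Cd3e stay at 4 or fewer in all 6.

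The other leukocyte alpha chains did not pass the test. Itgal, of the T cell integrin LFA-1, had 22 to 31 counts in LLC alone and 37 to 50 in LLC with BMSCs and an adjusted p of 0.0597, with LLC alone replicate 2 its highest library in that group and an adjusted p of 0.00708 without it. Itgax, a dendritic cell chain, had 4 to 14 and 3 to 6 counts, Itgae, a chain of mucosal T cells, 6 to 15 and 9 to 13, and Itgad 0 to 2 and 0 to 1. These 3 were under the filter.

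Itgb7, the beta chain of the gut-homing integrins of lymphocytes, was among the most abundant members and fell. It had 43.4, 42.1 and 44.5 FPKM in LLC alone and 25.2, 24.7 and 23.8 in LLC with BMSCs. The libraries within a group were nearly alike and the groups lay far apart, with a log2 fold change of -0.84 ± 0.06 (adjusted p = 1.45e-05, edgeR). Its known partners Itga4 and Itgae were at group means of 0.207 FPKM or less, so that the mean FPKM of Itgb7 was 277 times that of Itga4 in LLC alone and 119 times in LLC with BMSCs. Its share in the summed beta chains went from 21.6% ± 0.947 to 10.6% ± 0.378 (SD, n = 3).

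In the laminins the alpha chains, which carry the main site for cell receptors, were the class of lowest summed FPKM. The expressed ones, Lama5 and Lama3, both rose, while Lama1 entered the test through LLC with BMSCs only. Lama5, the widespread alpha chain of laminin-511, had 7.13, 7.86 and 4.14 FPKM in LLC alone and 17.7, 14.7 and 15.2 in LLC with BMSCs. The groups did not overlap, although LLC alone replicate 3 was well under its group, and the log2 fold change of 1.30 ± 0.22 (adjusted p = 0.00125, edgeR) was 0.95 with the length trend removed. Lama3, the alpha chain of the epithelial laminin-332, had 1.90, 1.78 and 1.41 FPKM in LLC alone and 3.89, 3.45 and 3.61 in LLC with BMSCs. Its log2 fold change was 1.13 ± 0.18 (adjusted p = 0.000918, edgeR), or 0.81 with the length trend removed. The RefSeq transcript of 10343 bases held 72.1% ± 2.46 of the Lama3 FPKM in LLC with BMSCs but 60.3% ± 30.8 in LLC alone, where it had 1.45, 1.43 and 0.35 FPKM, lowest in replicate 3. Lama1, the alpha chain of the embryonic laminin-111, had 0 counts in each library of LLC alone and 18, 23 and 22 in LLC with BMSCs, at least 19.7-fold higher against 3 counts over the group and at 0.05 FPKM at most as a group mean. Lama2 and Lama4, of muscle and vessel laminins, had 0 to 10 and 0 to 2 counts in any library.

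The beta and gamma chains that join Lama5 were abundant, and their groups overlapped. Lamb1 had 91.2, 93.1 and 68.6 FPKM in LLC alone and 102, 93.0 and 93.0 in LLC with BMSCs. LLC alone replicate 3 stood below all other libraries, and the log2 fold change of 0.17 ± 0.12 (adjusted p = 0.236, edgeR) turned to -0.04 with the length trend removed. Lamc1, the gamma chain of most laminins, had 74.1, 75.2 and 50.6 FPKM in LLC alone and 73.1, 64.3 and 66.0 in LLC with BMSCs. It had an adjusted p of 0.980 with the groups overlapping, but was lower with the length trend removed, at -0.27 (adjusted p = 0.00183, edgeR), and without LLC alone replicate 3, at -0.15 (adjusted p = 0.0440, edgeR). Lamb2, a chain of neuromuscular and kidney laminins, had means of 8.42 ± 1.25 and 7.01 ± 0.511 FPKM and an adjusted p of 0.0566, which passed at -0.49 with the length trend removed (adjusted p = 7.74e-05, edgeR).

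Lamb3, the beta chain of laminin-332, had 6 to 16 counts in LLC alone and 18 to 27 in LLC with BMSCs, at a log2 fold change of 1.17 ± 0.35 (adjusted p = 0.0190, edgeR), a call lost without LLC alone replicate 1 (adjusted p = 0.0674) or 2 (0.0542) and without LLC with BMSCs replicate 1 (0.0593) or 3 (0.0667). Lamc3 was not tested, with 4 to 9 counts in LLC alone and 0 to 4 in LLC with BMSCs.

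Summed by class, the laminin alpha chains had 8.08 ± 2.21 FPKM in LLC alone and 19.6 ± 1.81 in LLC with BMSCs (SD, n = 3) and the beta chains 92.8 ± 14.9 and 103 ± 5.68. The ratio of beta to alpha chain FPKM was therefore 11.1, 10.6 and 13.6 in LLC alone and 5.06, 5.47 and 5.29 in LLC with BMSCs. In the integrins the same ratio was 2.94, 2.97 and 3.44 in LLC alone and 1.90, 2.02 and 2.03 in LLC with BMSCs. Neither ratio overlapped between the groups, and 3 libraries against 3 allow no exact two-sided permutation p below 0.1.

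Integrin tails act through adaptor and signalling proteins. Of 37 such genes tested 15 were higher and 6 lower, beside 31.5% and 31.3% of all tested genes. Their median log2 fold change was 0.06. With the length trend removed the split was 14 and 10, and the median -0.01. Of those with a mean of at least 5 FPKM in a group, Tns3, a tensin that links beta chains to actin, rose from 4.55 ± 0.535 to 13.2 ± 0.523 FPKM, with a log2 fold change of 1.55 ± 0.09 (adjusted p = 7.40e-06, edgeR). The actin cross-linkers Flna and Actn1 rose by 0.91 ± 0.17 (adjusted p = 0.00218) and 0.76 ± 0.08 (adjusted p = 9.36e-05) on the log2 scale, and Apbb1ip (RIAM), which brings talin to integrins, by 0.73 ± 0.07 (adjusted p = 6.80e-05). At the same level the largest falls were -0.46 ± 0.09 for the docking protein Bcar1 (p130Cas; adjusted p = 0.00246), -0.42 ± 0.06 for Krit1 (adjusted p = 0.000712), -0.37 ± 0.09 for the Itgb1 tail binder Itgb1bp1 (adjusted p = 0.00871) and -0.37 ± 0.06 for Lims1 (PINCH; adjusted p = 0.000994). Below that level Tgfb1i1 (Hic-5) fell further, by 0.98 ± 0.11 (adjusted p = 0.000194). Fermt3, also below it, rose further than Tns3, by 2.30 ± 0.19 (adjusted p = 3.66e-05, edgeR). It had 14 to 16 counts in LLC alone and 72 to 85 in LLC with BMSCs. The kinase partner of Lims1, Ilk, had an adjusted p of 0.421, and focal adhesion kinase, Ptk2, rose by 0.32 ± 0.08 (adjusted p = 0.00747). Tgfb1i1, Fermt3, Ilk and Ptk2 are named outside the rule.

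Of 20 integrin ligand genes tested, 9 were higher and 7 lower, beside 31.5% and 31.3% of all tested genes. Their median log2 fold change was 0.39, or 0.13 with the length trend removed. Of those with a mean of at least 5 FPKM in a group, Vcam1, a counter-receptor of the alpha4 and alpha9 chains, rose furthest, from 2.10 ± 0.143 to 13.6 ± 0.626 FPKM, with a log2 fold change of 2.67 ± 0.07 (adjusted p = 2.43e-07, edgeR). The next rises at that level were those of thrombospondin-1, Thbs1, at 1.97 ± 0.14 (adjusted p = 1.83e-05), of fibrillin-1, Fbn1, from 5.30 ± 1.46 to 10.8 ± 0.819 FPKM (adjusted p = 0.00247), and of Emilin1 at 0.71 ± 0.06 (adjusted p = 4.56e-05). Below it, and named outside the rule, tenascin-C, Tnc, rose by 4.14 ± 0.15 on the log2 scale (adjusted p = 6.29e-07), and Fbln5 fell by 2.33 (adjusted p = 5.22e-07). F11r (JAM-A), a junction ligand of LFA-1, fell from 9.63 ± 0.0569 to 3.27 ± 0.154 FPKM, at -1.58 ± 0.07 (adjusted p = 1.53e-06). Thrombospondin-2, Thbs2, fell by 0.94 on the log2 scale (adjusted p = 8.23e-05), osteopontin, Spp1, the most abundant ligand gene at 1125 ± 88.2 FPKM in LLC alone, by 0.50 (adjusted p = 0.000799) and Mfge8 by 0.35 (adjusted p = 0.00387).

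Among 23 tested partners of laminin in basement membranes 12 were higher and 4 lower, beside 31.5% and 31.3% of all tested genes. Their median log2 fold change was 0.75, or 0.34 with the length trend removed. At a mean of at least 5 FPKM in a group the rises were led by Col7a1, the anchoring fibril collagen, from 0.363 ± 0.0321 to 12.9 ± 0.715 FPKM (log2 fold change 5.13 ± 0.09, adjusted p = 7.59e-08, edgeR). Fbln2 followed at 2.39 ± 0.08 (adjusted p = 5.14e-07), agrin, Agrn, which binds laminin gamma chains, at 1.88 ± 0.13 (adjusted p = 1.53e-05), and nidogen-1, Nid1, which joins laminin to collagen IV, at 1.46 ± 0.12 (adjusted p = 3.33e-05). The collagen IV chains Col4a1 and Col4a2, named outside the rule, had adjusted p values of 0.505 and 0.895. Tinagl1 was the one gene of the list at 5 FPKM or more that fell, from 18.3 ± 1.15 to 3.89 ± 0.362 FPKM (log2 fold change -2.25 ± 0.09, adjusted p = 1.19e-06, edgeR). BMSC or fibroblast markers moved beside these matrix genes, with Col1a1 at 2 to 4 counts in LLC alone and 477 to 586 in LLC with BMSCs, Dcn at 8 and 492 to 526, and Thy1 at 0 to 2 in any library, and their part in the results was not tested.

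**Figure D5:**
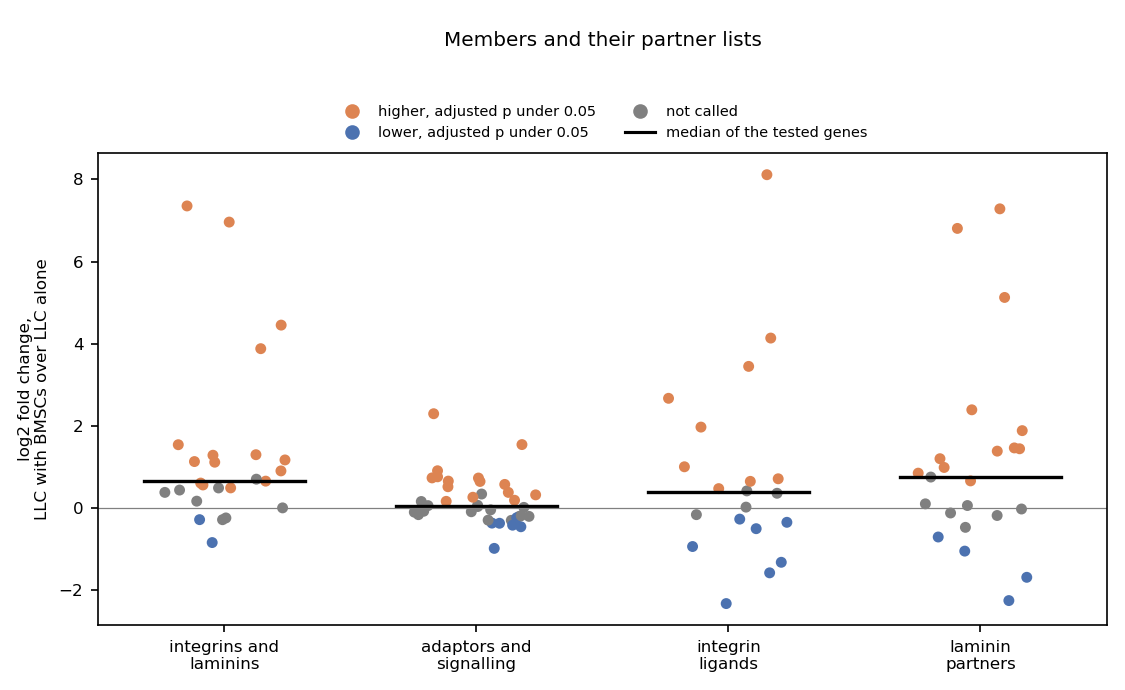
Log2 fold change, LLC with BMSCs over LLC alone, of every tested gene of the families and of the 3 partner lists, with the median as a line and calls in colour. The medians were 0.66 for integrins and laminins, 0.06 for adaptors, 0.39 for ligands and 0.75 for laminin partners; points above 6 are genes with almost no counts in LLC alone.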

How the data were processed

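RNA sequencing of 3 LLC alone and 3 LLC with BMSCs libraries was analysed. The submitters' processing notes name HISAT, StringTie, Cufflinks and GATK and the build mm8, with no roles. The authors deposited expected counts per gene and transcript, which need not be whole, and FPKM, which divides by transcript length and library total. A gene not listed in a library was taken as 0. Deposited gene lengths served the length trend, and the deposited table of all samples' FPKM was not used.

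Expected counts were first rounded to whole numbers, and edgeR 4.0.16 was run with defaults (TMM, default low-count filter, quasi-likelihood, Benjamini-Hochberg over all genes, threshold 0.05). On simulated counts edgeR recovered 183 of 200 genes planted at a log2 fold of 1, with 7 false calls among 190. The simulated counts had the same dispersion for every gene, no length trend and few changed genes, so these rates need not hold here. The SE is the absolute log2 fold change over the root of the test statistic. DESeq2 1.42.0, limma 3.58.1 and other scalings, filters and library sets were alternatives. Folds against a group at 0 are bounds, taken against 3 counts over the group. Bounds and intervals cover counting error only.

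The members and lists were chosen with earlier results of these data known. Members get full values if expressed, called and changed by a log2 fold change of at least 1, or among the 8 highest; from each partner list the 4 largest rises and falls with a mean of at least 5 FPKM in a group are named. A gene that also matched the rule and a marker gene are not reported here.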

Additional observations from a re-analysis of the deposited data

How the results depend on the processing

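Of the 25 tested members, the direction of all but Lamb1 and Lamc1 held in every fit that could be made: DESeq2, no TMM, upper-quartile scaling, other filters, limma on FPKM, the length trend removed, the replicate block, close libraries summed and each library left out. Lamb1 turned to -0.040 with the length trend removed and -0.039 with the block added to that. Lamc1 turned to -0.022 with upper-quartile scaling, -0.27 with the length trend removed, -0.27 with the block added to that, -0.15 without LLC alone replicate 3 and -0.06 without LLC with BMSCs replicate 1, and was -0.15 to 0.10 over the libraries left out in turn. Itga2b and Itgb5 lost their calls with close libraries summed, Lamb3 with that and with 4 of the 6 libraries left out, and Itga1, Itga10, Itgal and Lamb2 gained one in at least 1 fit. Without a filter 18 members were higher, Itga9, Itga11 and Itgb8 added. Lower members numbered 4 with the length trend removed, 5 with the block added to that, 1 with close libraries summed, 2 to 5 with each library left out (5 without LLC alone replicate 3), and 0 by edgeR at a log2 fold change of at least 1. Adaptor and signalling genes numbered 2 higher and 0 lower at a log2 fold change of at least 1, and 10 lower with the length trend removed, 11 with the block added to that. Lower ligand genes numbered 3 at that fold change, and lower laminin partners 1 with limma on log2(FPKM + 1) or log2(FPKM + 0.1), where 15 of them were tested.

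Same-numbered libraries did not deviate together: the correlations were 0.08, -0.11 and 0.06 for the 3 numbers, against -0.16 to 0.15 for other pairings. With the replicate number as a block, members were 16 higher and 3 lower, adaptors 15 and 7, ligands 10 and 7, and laminin partners 13 and 3. Depth limits the 10 untested members, whose counts were 15 or fewer in every library.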
